A study of Mus musculus and Homo sapiens with 14 samples.

Results

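The 10 genes described here control the first gap phase (G1) of the cell cycle: the D-type cyclins Ccnd1, Ccnd2 and Ccnd3, their kinases Cdk4 and Cdk6, the E-type cyclins Ccne1 and Ccne2, the inhibitors Cdkn1b and Cdkn2c, and the retinoblastoma gene Rb1. They were chosen by name. All 10 were found among 26221 gene symbols of the mouse count table, and all 10 were found in capitals among 27945 symbols of the human table. RNA was sequenced in 14 libraries, 10 from mouse and 4 from human cells, to compare plasma cells with and without intact IRF4, a transcription factor on which plasma cell formation depends. Splenic plasma cells came from Irf4 flox/- or Irf4 flox/+ donor bone marrow (2 libraries each), which was transferred together with uMT bone marrow into congenically marked hosts. The uMT mutation blocks the formation of mature B cells, and the labels give the sorted plasma cells as those of the donor. Both genotypes received tamoxifen on days 1, 2, 7 and 8 and were harvested on day 14, and both carried the floxed allele, so the flox/+ cells were not untreated wild type cells. The labels do not name the Cre driver. MPC-11, a plasmacytoma line of the mouse, and MM.1S, a line of human multiple myeloma, carried Cas9 and either an IRF4 guide RNA or the empty vector (2 libraries each). Both lines received doxycycline before they were sorted on day 3. The labels call the guide cells Irf4 -/- and do not say whether they were pools or clones. Wild type bone marrow plasma cells and wild type splenic follicular B cells gave 1 library each, and C57BL/6 is the labelled strain of all mouse samples.

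In G1, a D-type cyclin binds CDK4 or CDK6, and the active kinase begins to phosphorylate the retinoblastoma protein, which holds E2F transcription factors in check. Released E2F raises cyclin E, cyclin E with CDK2 completes the phosphorylation, and genes for DNA replication are switched on. p18INK4c, the product of Cdkn2c, binds CDK4 and CDK6 directly, while p27KIP1, the product of Cdkn1b, mainly inhibits cyclin E with CDK2. In mice p18INK4c is needed for functional plasma cells to form, and mature plasma cells have left the cycle. In human multiple myeloma the deregulation of a D-type cyclin is a common and early event.

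The stretches of 250 bases before the start site of 2 members are shown because these genes stood out in sequence or in expression. Cdk4, which has a start far richer in E boxes than most genes, is shown with the E box CACGTG in capitals, the core to which MYC and related factors can bind. Ccne1, which was lower with the guide in both cell lines, is shown with the GC box GGGCGG, or its reverse complement, in capitals. Both are from RefSeq, mouse build GRCm38.p6, at chr10:127063285-127063534 on the plus strand and chr7:38107491-38107740 on the minus strand, written 5′ to 3′ along the gene.
Cdk4: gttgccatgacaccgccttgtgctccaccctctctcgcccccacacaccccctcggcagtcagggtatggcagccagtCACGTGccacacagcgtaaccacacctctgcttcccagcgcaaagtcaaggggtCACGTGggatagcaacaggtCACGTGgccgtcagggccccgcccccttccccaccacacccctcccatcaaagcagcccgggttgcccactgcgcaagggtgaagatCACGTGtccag
Ccne1: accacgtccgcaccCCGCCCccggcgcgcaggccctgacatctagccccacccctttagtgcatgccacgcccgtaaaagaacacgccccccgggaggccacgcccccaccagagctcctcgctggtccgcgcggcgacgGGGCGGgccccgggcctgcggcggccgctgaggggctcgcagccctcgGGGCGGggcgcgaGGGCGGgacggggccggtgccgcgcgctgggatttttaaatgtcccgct

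The Cdk4 stretch held 4 E boxes, whose first bases lie 172, 118, 98 and 11 bases before the start. Of 32817 windows of the same length in the mouse table, 6.02% held at least 1 such E box and 7 windows (0.0213%) held 4 or more. The Ccne1 stretch held 4 GC boxes, and 4 or more were found in 4.09% of the windows, and 32.7% of the windows held at least 1. In the same build Cdk4 spans 127063535 to 127067288 on chromosome 10, Ccne1 38097984 to 38107490 on chromosome 7 and Ccnd2 127125162 to 127152188 on chromosome 6. The promoter table covered 6 of the 10 members with 8 windows. On either strand, none of these 8 windows held the E2F sites TTTGGCGC, TTTCGCGC, TTTCCCGC or TTTGCCGC, which together occurred in 1.86% of windows. None held a simple IRF element, here GAAA, any 2 bases and GAAA, which was found in 2.97% of windows, or an ETS-IRF composite, here GGAA, any 2 bases and GAAA, found in 2.3%. A match is a run of letters and not a shown binding site, and its absence says only that these letters are not in this stretch.

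Total counts per library ran from 18738283 to 27003585 in mouse and from 19317115 to 21572315 in human cells. Immunoglobulin genes took 58.8% and 55.4% of counts in flox/- against 75.5% and 77.2% in flox/+ plasma cells. Levels are therefore given as CPM, the count scaled by library size, after TMM scaling, a scaling to the bulk of genes, unless FPKM is named. The scaling was done anew within each comparison, so the CPM values of a library differ between comparisons. The sums of cell markers, the ribosomal RNA precursor and the orders over mouse groups use a single scaling over all mouse libraries. Differences were tested with edgeR's quasi-likelihood test, with p-values adjusted over all genes of a comparison and a threshold of 0.05, and n = 2 per group throughout; the error after a mean CPM is the SD and that after a log2 difference or fold change is the SE. IRF4 stood at 142 and 191 CPM with the guide against 489 and 434 CPM with the empty vector in MM.1S, and at 276 and 146 CPM with the guide against 467 and 496 CPM with the empty vector in MPC-11. In spleen Irf4 stood at 82.6 and 99.8 CPM in flox/- against 114 and 53.8 CPM in flox/+ libraries, which overlap, so the genotype rests on the labels. The adjusted p of IRF4 was 0.199 in MM.1S, 0.592 in MPC-11 and 0.967 in spleen by edgeR, and 2.26e-08 in MM.1S by DESeq2. All 8 plasma cell markers had counts in each plasma cell and cell line library. The labels name no batch, and nothing in them says that the 2 libraries of a group came from separate animals or cultures, so the p-values measure the spread between these samples only. In bulk RNA, fewer cells of a type and less RNA per cell cannot be told apart.

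In MM.1S the D-type cyclins, both kinases and both E-type cyclins were lower with the IRF4 guide. Of the 9 members tested, 8 were lower, against 49.3% of all genes, and all 8 without overlap between the groups, against 18.9%. Their median log2 difference was -0.97, against 0.01 over all 12696 genes tested. No member passed edgeR's adjusted threshold, which 0.00788% of all genes passed. The smallest adjusted p of a member was 0.22. At an unadjusted p under 0.05, 5 members were lower, against 4.58% of all genes; this count was 2 without guide library 2, 3 without guide library 1 or with library size as the only scaling, and 6 without empty vector library 1. DESeq2 called 3 members lower, against 1.4% of all genes. The count of lower members was 8 or 9 of 9 when any 1 library was left out. Without empty vector library 1, 966 genes passed edgeR's threshold instead of 1, CCND2, CDK6 and CCNE1 among them.

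**Figure D1:**
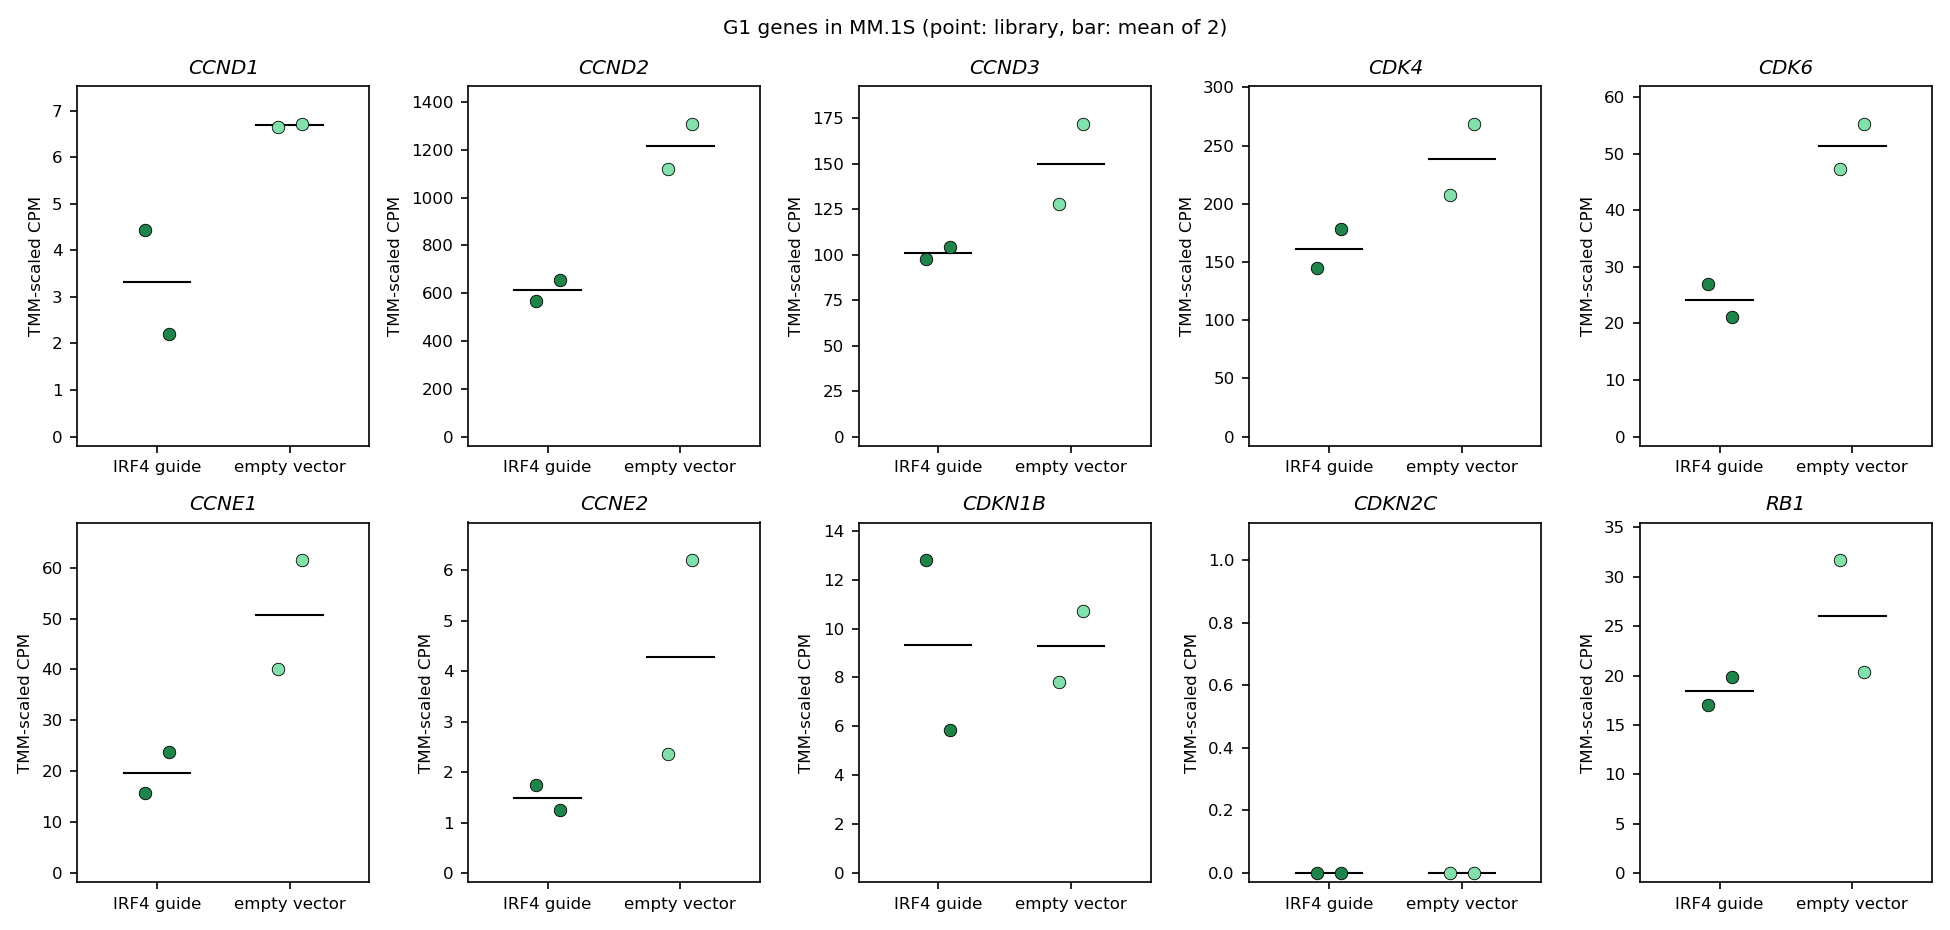
TMM-scaled CPM (y axes, each from 0) of the 10 genes in the 4 MM.1S libraries; points are libraries and bars are means of 2. Both guide libraries lie below both empty vector libraries for 8 genes, CDKN1B overlaps, and CDKN2C has no count in any of the 4 libraries.

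CCND2, the most abundant D-type cyclin of MM.1S cells, stood at 571 and 659 CPM with the guide and at 1100 and 1310 CPM with the empty vector. The mean was 615 ± 62.5 CPM against 1210 ± 149 CPM (SD), a log2 difference of -0.97 ± 0.18 SE (adjusted p = 0.22 by edgeR and 5.82e-05 by DESeq2). Both guide libraries lay well below both empty vector libraries. CCND3 stood at 97.7 and 105 CPM with the guide against 127 and 172 CPM with the empty vector, a log2 difference of -0.56 ± 0.23 SE (adjusted p = 0.486 by edgeR). CCND1 had little expression, with 86 and 48 counts with the guide against 141 and 130 counts with the empty vector, and a log2 difference of -1.0 ± 0.61 SE (adjusted p = 0.696 by edgeR).

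The kinase CDK6 stood at 27.1 and 21.2 CPM with the guide against 46.8 and 55.5 CPM with the empty vector, a log2 difference of -1.08 ± 0.26 SE (adjusted p = 0.305 by edgeR and 0.027 by DESeq2). CDK4 stood at 145 and 179 CPM with the guide against 206 and 270 CPM with the empty vector, a log2 difference of -0.55 ± 0.23 SE (adjusted p = 0.491 by edgeR). The guide libraries were the lower ones for both kinases. CCNE1, which carries the cell from G1 into S phase, showed the largest difference among the members with p under 0.05. It stood at 15.8 and 23.8 CPM with the guide and at 39.7 and 61.8 CPM with the empty vector, a log2 difference of -1.36 ± 0.34 SE (adjusted p = 0.31 by edgeR and 0.0221 by DESeq2). CCNE2 was near the low end of detection, with 34 and 27 counts with the guide against 50 and 120 counts with the empty vector, and a log2 difference of -1.50 ± 0.84 SE (adjusted p = 0.657 by edgeR).

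RB1 stood at 17.1 and 20.0 CPM with the guide against 31.4 and 20.5 CPM with the empty vector, so the groups were separated only narrowly. CDKN1B stood at 12.8 and 5.87 CPM with the guide against 7.75 and 10.8 CPM with the empty vector, which overlap, with a log2 difference of 0.01 ± 0.51 SE whose sign turned with single libraries. CDKN2C, the direct inhibitor of CDK4 and CDK6, had 0 counts in all 4 MM.1S libraries. By a floor of 3 counts, this allows up to 0.155 and 0.139 CPM in the guide libraries and up to 0.14 and 0.156 CPM in the empty vector libraries, a limit for counting error only. Whether the 0 reflects the gene's expression or the state of the locus in these cells cannot be told from counts. FAF1, listed just before it in the human count table, had 0 and 45 counts with the guide against 0 and 37 counts with the empty vector, and MIR4421, MIR6500 and C1orf185, listed just after it, had 0 in all 4. RNF11, the next entry, had 445 and 450 counts with the guide against 498 and 362 counts with the empty vector, and EPS15, 7 entries after CDKN2C, had 1128 and 1476 counts with the guide against 1020 and 1154 counts with the empty vector. Neighbours were looked at after the values of CDKN2C were seen.

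Of 29 G1 partner genes, which include the E2F factors, other inhibitors and the ubiquitin ligase parts that remove them, 21 were lower and 8 higher, at a median log2 difference of -0.34; 5 were lower at an unadjusted p under 0.05, and 0 without guide library 1 or 8 without empty vector library 1. E2F2 averaged 66.5 ± 15.0 CPM with the guide and 127 ± 2.28 CPM with the empty vector (log2 difference -0.94 ± 0.24 SE, adjusted p = 0.31 by edgeR and 0.0135 by DESeq2). E2F1, an activator of S phase genes, averaged 93.1 ± 35.5 CPM with the guide and 176 ± 20.1 CPM with the empty vector. E2F7, a repressor among the E2F genes, averaged 21.2 ± 4.6 CPM with the guide and 39.8 ± 9.68 CPM with the empty vector, and CKS1B, a cofactor in the removal of p27KIP1, 55.4 ± 4.88 CPM with the guide and 87.3 ± 14.6 CPM with the empty vector. Of 24 genes of S phase and mitosis, 22 were lower, with a median of -0.65, and 12 were lower at an unadjusted p under 0.05, against 4.58% of all genes; without guide library 1 the count was 4 and without empty vector library 1 it was 17. The 12 were AURKB, CDC6, TK1, TYMS, RRM2, PCNA and the genes MCM2, MCM3, MCM4, MCM5, MCM6 and MCM7. RRM2, a subunit of ribonucleotide reductase, averaged 207 ± 40.7 CPM with the guide and 613 ± 230 CPM with the empty vector (log2 difference -1.57 ± 0.30 SE, adjusted p = 0.22 by edgeR and 2.18e-05 by DESeq2). MCM6, MCM7 and MCM4, parts of the replicative helicase, had log2 fold changes of -1.11 ± 0.21, -0.98 ± 0.24 and -1.20 ± 0.31 (SE). Of 21 upstream regulators tested, 13 were higher and 8 lower, and 10 of 22 were higher without guide library 2 or empty vector library 2. At an unadjusted p under 0.05 by edgeR, 3 were higher and 2 lower, against 688 and 582 of all 12696 genes. DESeq2 called 1 of the 21, which was higher. MYC stood at a mean of 394 CPM with the guide against 306 CPM with the empty vector, and the groups overlapped.

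In MPC-11 the E-type cyclins were lower with the Irf4 guide, and the D-type cyclins and Cdk4 overlapped between the groups. Of 8 members tested, 4 were higher and 4 lower, against 51.5% of all genes lower, at a median log2 difference of 0.06 against -0.02 over 10670 genes. No member passed edgeR's adjusted threshold, which 0.0187% of all genes passed, or that of DESeq2, which 1.56% passed. In 3 members the groups did not overlap, against 33.5% of all genes. At an unadjusted p under 0.05, 1 member was lower, against 2.56% of all genes. The difference between the responses of the 2 lines was not tested, since they belong to different species and tables.

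Ccne1 stood at 17.4 and 14.7 CPM with the guide and at 31.7 and 67.9 CPM with the empty vector, a log2 difference of -1.64 ± 0.48 SE (adjusted p = 0.553 by edgeR and 0.0996 by DESeq2). Both guide libraries lay below both empty vector libraries, which themselves lay far apart, and without empty vector library 2 the log2 difference was -0.96. Ccne2 stood at 8.48 and 13.1 CPM with the guide against 24.9 and 15.6 CPM with the empty vector, again without overlap, a log2 difference of -0.91 ± 0.53 SE (adjusted p = 0.998 by edgeR). Ccnd2 stood at 562 and 428 CPM with the guide against 301 and 537 CPM with the empty vector, a log2 difference of 0.24 ± 0.36 SE. The level of Ccnd2 was above that of Ccnd3 in each of the 4 libraries also per length, by the FPKM shares given further on. Ccnd3 had a log2 fold change of 0.22 ± 0.31 and Cdk4 one of -0.10 ± 0.29 (SE), and for both the groups overlapped. Ccnd1 had 0 counts in all 4 MPC-11 libraries, and Cdk6 had 7 and 17 counts with the guide against 5 and 4 counts with the empty vector, so neither was tested.

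Among the brakes in MPC-11, Cdkn2c stood at 16.8 and 14.5 CPM with the guide against 13.1 and 6.77 CPM with the empty vector, a log2 difference of 0.65 ± 0.57 SE (adjusted p = 1 by edgeR). Cdkn1b and Rb1 overlapped between the groups. The ribosomal RNA precursor Rn45s varied within both groups, at 2930 and 18300 CPM with the guide against 10800 and 3620 CPM with the empty vector. The part of ribosomal RNA in the levels of the members was not tested here either. Cdkn1a, the gene of the CDK inhibitor p21, averaged 378 ± 6.96 CPM with the guide and 215 ± 24.1 CPM with the empty vector (log2 difference 0.81 ± 0.28 SE, adjusted p = 0.657 by edgeR). Of 28 G1 partners tested, 18 were lower and 10 higher, with a median of -0.35; without empty vector library 2 the split was 10 lower and 18 higher. Ccna2, the cyclin A of S phase, averaged 59.3 ± 21.9 CPM with the guide and 120 ± 7.85 CPM with the empty vector (adjusted p = 0.664 by edgeR). Rbl1, a relative of Rb1, averaged 11.4 ± 3.77 CPM with the guide and 27.6 ± 5.83 CPM with the empty vector (adjusted p = 0.763), and E2f6, a repressor, 13.8 ± 1.46 CPM with the guide and 4.50 ± 0.635 CPM with the empty vector (adjusted p = 0.738). Of 24 S phase and mitosis genes, 23 were lower, with a median of -0.86; 10 were lower at an unadjusted p under 0.05, and 0 without guide library 1. Of 17 upstream regulators tested, 15 were higher and 2 lower, none at an unadjusted p under 0.05, and 9 were higher without empty vector library 1. Cdc20, an activator of the anaphase-promoting complex, averaged 165 ± 33.7 CPM with the guide and 365 ± 13.7 CPM with the empty vector (log2 difference -1.15 ± 0.30 SE, adjusted p = 0.528 by edgeR and 0.019 by DESeq2). Mcm6, Mcm7 and Rrm1 had log2 fold changes of -1.05 ± 0.32, -1.06 ± 0.34 and -1.0 ± 0.32 (SE). Over all genes of the MPC-11 guide comparison, 51.5% were lower, and 2.56% were lower at an unadjusted p under 0.05 by edgeR.

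**Figure D2:**
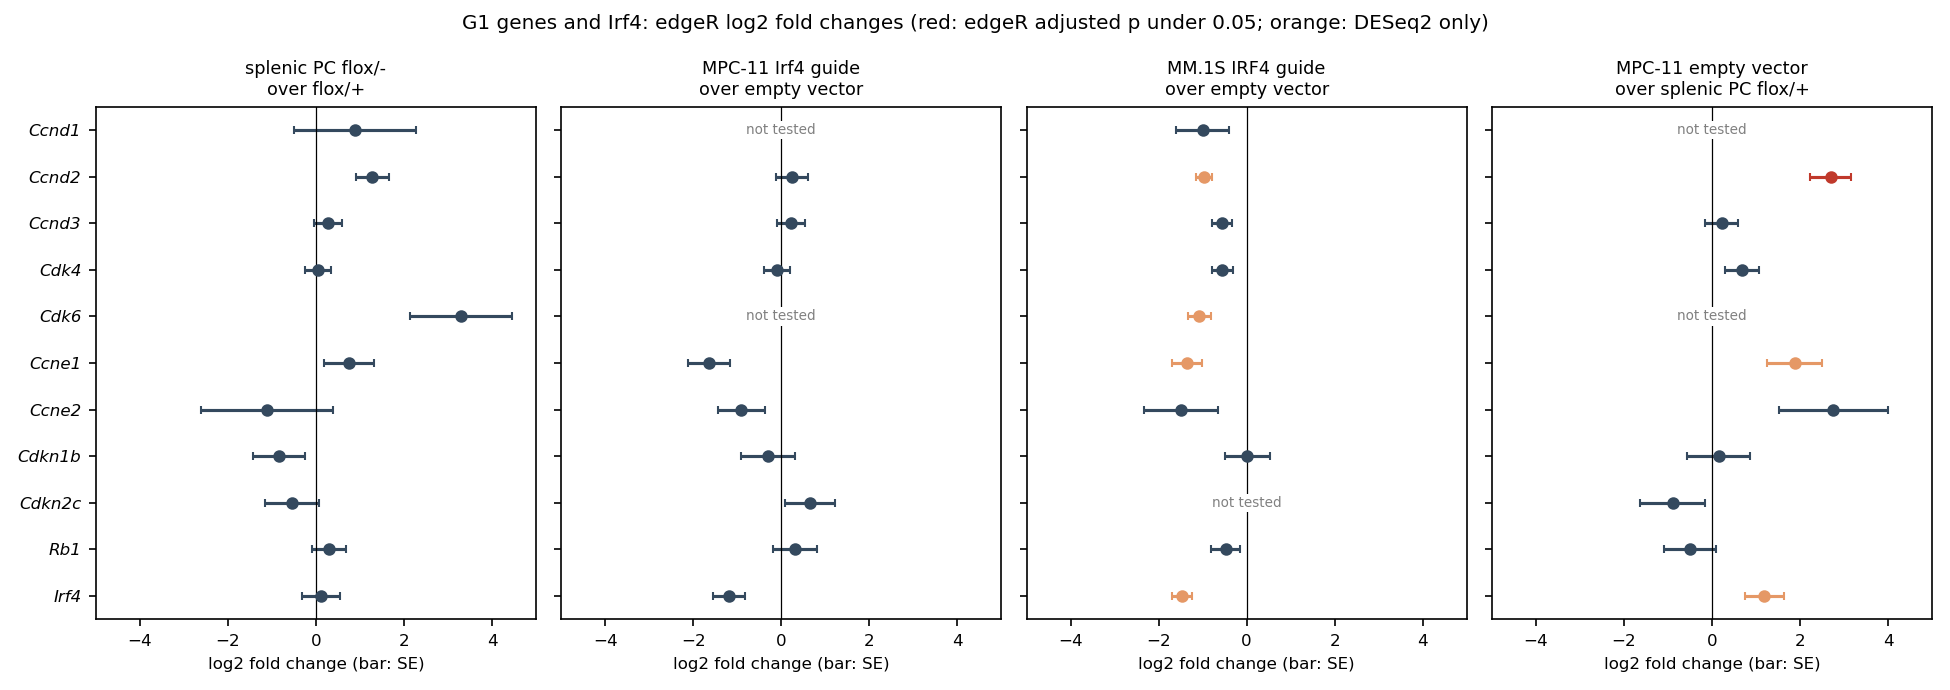
Log2 fold changes (x axis) with SE bars of the 10 genes and Irf4 in 4 comparisons of 2 against 2 libraries, the first-named group over the second; mouse symbols stand for both species. In MM.1S 8 of the 9 tested members lie below 0, and Ccnd2 in MPC-11 over splenic flox/+ plasma cells, at 2.70, is the member with an edgeR adjusted p under 0.05.

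In splenic plasma cells Ccnd2 and Cdk6 were higher in flox/- than in flox/+ libraries, and the inhibitors were lower, none of them past the adjusted threshold. Of the 10 members, 7 were higher, against 54.3% of all genes, and 3 lower, at a median log2 difference of 0.29 against 0.09 over 11887 genes. No gene of the whole comparison passed edgeR's adjusted threshold (0%; smallest adjusted p = 0.26), while 1026 genes were higher and 458 lower at an unadjusted p under 0.05 and DESeq2 called 632 (5.32%). At an unadjusted p under 0.05, 2 members were higher, against 8.63% of all genes. In 5 members the flox/- libraries lay above both flox/+ libraries, and in 2 below, against 44.1% of all genes without overlap in either direction. DESeq2 called no member. With library size as the only scaling, under which the median of all genes was 0.98 instead of 0.09, 3038 genes were higher and 74 lower at an unadjusted p under 0.05, 6 members among the higher ones, and still none passed the adjusted threshold.

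Ccnd2 stood at 73.7 and 50.6 CPM in flox/- plasma cells and at 30.3 and 20.9 CPM in flox/+ plasma cells, a log2 difference of 1.28 ± 0.38 SE (adjusted p = 0.286 by edgeR and 0.0769 by DESeq2). The groups did not overlap. Cdk6 had 46 and 63 counts in flox/- against 4 and 2 counts in flox/+ libraries, a log2 difference of 3.29 ± 1.16 SE (adjusted p = 0.336 by edgeR). Ccne1 stood at 10.1 and 7.93 CPM in flox/- against 6.49 and 4.24 CPM in flox/+ libraries, a log2 difference of 0.75 ± 0.56 SE (adjusted p = 0.718 by edgeR). Ccnd3 and Cdk4 were close to level, with log2 fold changes of 0.27 ± 0.31 and 0.05 ± 0.30 (SE). Ccnd1 ranged widely within each genotype, with 100 and 22 counts in flox/- and 4 and 34 counts in flox/+ libraries, and so did Ccne2, with 12 and 21 counts in flox/- and 2 and 40 counts in flox/+ libraries.

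Cdkn1b stood at 4.79 and 4.26 CPM in flox/- against 10.1 and 6.14 CPM in flox/+ libraries, a log2 difference of -0.84 ± 0.59 SE (adjusted p = 0.696 by edgeR). Cdkn2c stood at 4.83 and 5.11 CPM in flox/- against 9.36 and 5.24 CPM in flox/+ libraries, a log2 difference of -0.55 ± 0.61 SE. With library size as the only scaling these became 0.03 and 0.32, so both were lower only relative to the bulk of genes. Without flox/+ library a, Cdkn2c was at -0.08. Rb1 had a log2 difference of 0.30 ± 0.39 SE.

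Markers of other cells were higher in the same flox/- libraries. Summed over 10 macrophage and monocyte genes, the level was 7110 and 601 CPM in flox/- against 485 and 182 CPM in flox/+ libraries, with Marco at 0 in all but the first flox/- library. The same sum was 1310 and 935 CPM in MPC-11 with the guide and 1140 and 1260 CPM with the empty vector, all from Cd68. The line thus reached such sums with 1 gene of the list, and the part of Cd68 in the splenic sums is not given. Summed over 8 T cell genes the level was 176 and 454 CPM in flox/- against 15.2 and 30.0 CPM in flox/+ libraries, and over 6 NK cell genes 47.6 and 131 CPM in flox/- against 13.6 and 21.9 CPM in flox/+. Over 6 erythroid genes it was 828 and 44.9 CPM in flox/- against 42.2 and 4.87 CPM in flox/+ libraries, and over 8 follicular B cell genes 506 and 773 CPM in flox/- against 229 and 248 CPM in flox/+. Neutrophil, platelet and stromal lists gave no such split: over 5 neutrophil genes the sum was 0.0496 and 0.399 CPM in flox/- against 0.55 and 0 CPM in flox/+, over 4 platelet genes 2.09 and 0.0999 CPM in flox/- against 2.11 and 1.54 CPM in flox/+, and over 5 stromal genes 65.2 and 46.6 CPM in flox/- against 49.5 and 36.4 CPM in flox/+. The plasma cell list summed to 36300 and 33500 CPM in flox/- against 78800 and 98500 CPM in flox/+ libraries. Rn45s, the ribosomal RNA precursor, stood at 971 and 572 CPM in flox/- against 10600 and 2270 CPM in flox/+ libraries, without overlap. The part of these cells and of ribosomal RNA in the levels of the members was not tested. Without flox/- library 1, which had most of the macrophage signal, Ccnd2 had a log2 fold change of 0.99 and Cdk6 one of 3.51, and no member had an unadjusted p under 0.05. Without flox/- library 2, which had most of the T, NK and follicular B cell signal, Ccnd2 had one of 1.52 and Cdk6 one of 3.02, and 1 member had an unadjusted p under 0.05.

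Of the 26 G1 partners tested in spleen, 17 were higher, with a median of 0.33 and none at an unadjusted p under 0.05, or 8 with library size as the only scaling. Of 24 S phase and mitosis genes, 20 were higher in flox/- libraries, with a median of 0.75, and 6 were higher at an unadjusted p under 0.05; the count was 2 without flox/- library 1, 3 without flox/- library 2 and 15 with library size as the only scaling. Mcm5 averaged 39.6 ± 2.85 CPM in flox/- and 9.41 ± 2.98 CPM in flox/+ libraries (log2 difference 2.07 ± 0.40 SE, adjusted p = 0.275 by edgeR and 0.000703 by DESeq2), and Mcm3, of the same helicase, 24.1 ± 5.98 CPM in flox/- and 7.58 ± 5.33 CPM in flox/+ libraries. Ccnf averaged 4.31 ± 3.53 CPM and Cdc6 2.20 ± 2.18 CPM in flox/- libraries, and both had no count in flox/+ libraries. The same marker sums stand beside these genes. Over all genes of the spleen comparison, 54.3% were higher, and 8.63% were higher at an unadjusted p under 0.05 by edgeR. Of 21 upstream regulators tested, 16 were higher and 5 lower, 4 of the higher ones at an unadjusted p under 0.05; without flox/- library 2 the split was 10 higher and 11 lower. Among them Myc averaged 18.3 CPM in flox/- and 6.03 CPM in flox/+ libraries, at an adjusted p of 0.283 by edgeR.

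**Figure D3:**
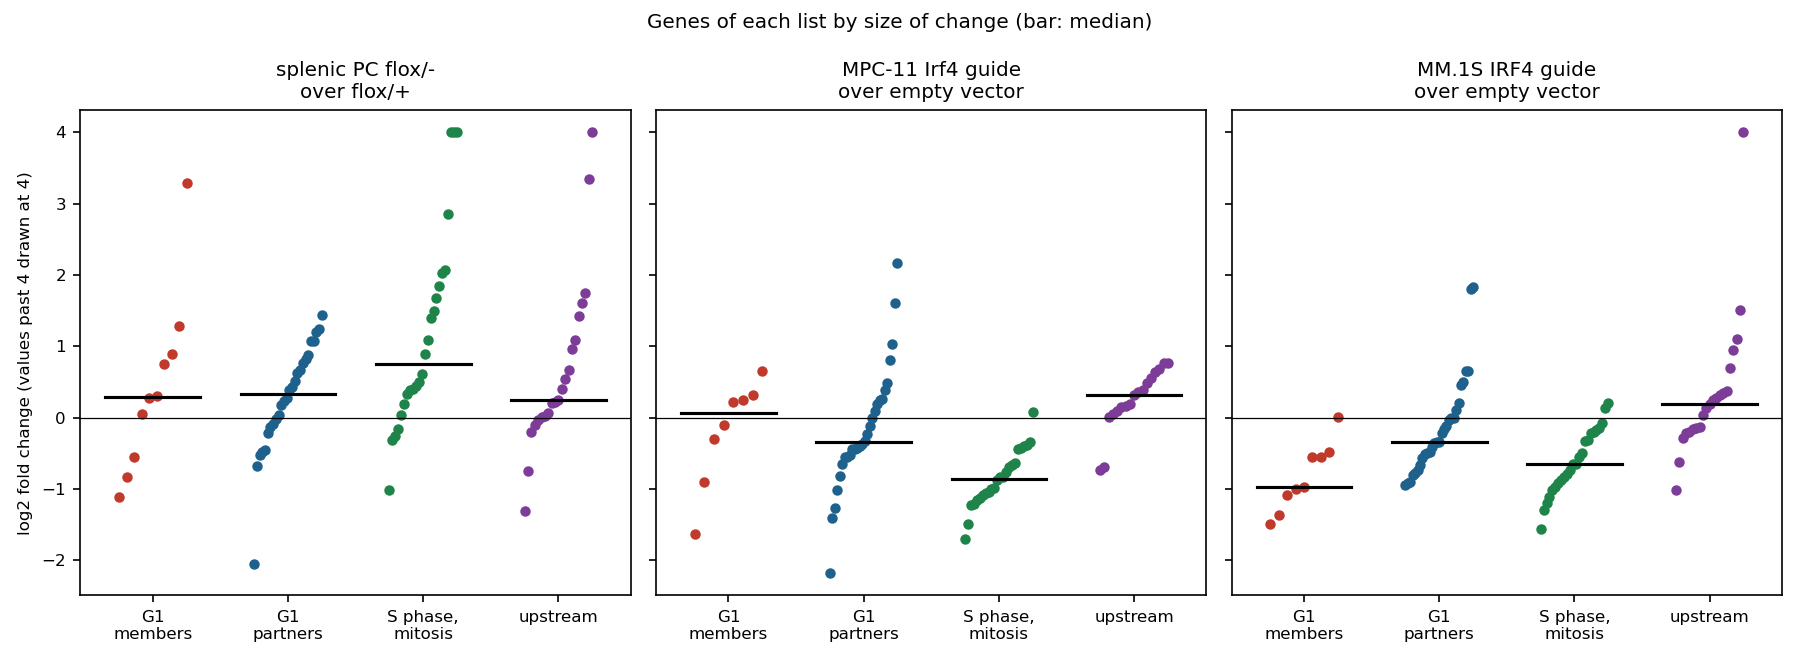
Log2 fold changes (y axis) of the tested genes of 4 lists in the 3 IRF4 comparisons, sorted within each list, with bars at the medians. The S phase and mitosis list has medians of 0.75 in spleen, -0.86 in MPC-11 and -0.65 in MM.1S; the upstream list holds regulators such as Myc and Foxo1.

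The difference between the guide effect in MPC-11 and the flox/- effect in spleen was tested directly over 8 libraries. No gene passed edgeR's adjusted threshold (0%; smallest adjusted p = 0.138), with 255 genes higher and 552 lower at an unadjusted p under 0.05 and 179 called by DESeq2 (1.53%), none of them a member. Ccne1 was the 1 member with an unadjusted p under 0.05, lower as were 4.25% of all genes: the MPC-11 effect minus the spleen effect was -2.38 ± 0.73 SE on the log2 scale (adjusted p = 0.587 by edgeR). For Ccnd2 it was -1.04 ± 0.54 SE (adjusted p = 0.909 by edgeR). For the other 7 members with a value, it ranged from -1.87 ± 1.81 for Cdk6 to 1.19 ± 0.86 for Cdkn2c (SE), and Ccnd1, without counts in MPC-11, gave no value. In the S phase and mitosis list the MPC-11 effect was the lower one for 23 of 24 genes, against 7266 of 12992 over all genes. The median was -1.84 against -0.13 over all genes. At an unadjusted p under 0.05 the MPC-11 effect was lower for 13 of the 24, and DESeq2 called 5. Mcm5 had a difference of -2.93 ± 0.54 SE (adjusted p = 0.217 by edgeR and 0.00056 by DESeq2), and Cdc20 one of -5.40 ± 1.08 SE (adjusted p = 0.247 by edgeR). Cdc20 averaged 0.351 CPM in flox/+ libraries in the spleen comparison, so its value rests on few counts there. Ccnf, which had the smallest p of the list, and Cdc6 had no count in flox/+ libraries, so no fold is given. The spleen side of this difference carries the marker sums given above.

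Set against flox/+ splenic plasma cells, MPC-11 cells with the empty vector, a cycling tumour line beside sorted primary cells, had far more Ccnd2. Ccnd2 stood at 165 and 298 CPM in MPC-11 and at 40.8 and 30.6 CPM in flox/+ plasma cells, a log2 difference of 2.70 ± 0.47 SE (adjusted p = 0.00657 by edgeR). It rose in MPC-11 by 6.49-fold and was the 1 member of 8 tested to pass, against 27.7% of 11465 genes. At an unadjusted p under 0.05, 2 members were higher, against 18% of all genes, and DESeq2 called 2 higher, against 14.6%. Of the 8, 6 were higher, against 49.5% of all genes, and 6 did not overlap, against 66.5%. Ccne1 stood at 17.3 and 37.7 CPM in MPC-11 against 8.74 and 6.21 CPM in flox/+ plasma cells, a log2 difference of 1.88 ± 0.62 SE (adjusted p = 0.0614 by edgeR and 0.0198 by DESeq2). Ccne2 stood at 13.6 and 8.63 CPM in MPC-11 against 0.157 and 3.10 CPM in flox/+ plasma cells, a log2 difference of 2.76 ± 1.24 SE (adjusted p = 0.149 by edgeR). Without flox/+ library b, Ccne2 had a log2 fold change of 6.11, which rests on 2 counts in flox/+ library a, under the floor of 3 counts. Ccnd1 had no count in MPC-11 and 4 and 34 counts in flox/+ libraries, so it was at least 36.4-fold lower in MPC-11, by a floor of 3 counts over the group. Most of that rests on flox/+ library b: with library a alone, it was at least 7.76-fold lower.

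Cdk4 stood at 183 and 144 CPM in MPC-11 against 86.7 and 117 CPM in flox/+ plasma cells, without overlap. Its log2 difference was 0.68 ± 0.39 SE (adjusted p = 0.247 by edgeR). Myc averaged 1290 ± 791 CPM in MPC-11 and 8.45 ± 0.641 CPM in flox/+ plasma cells, a log2 difference of 7.25 ± 0.70 SE (adjusted p = 0.000595 by edgeR). Any link between Myc, the E boxes and the level of Cdk4 was not tested. Ccnd3 was close to level, at 0.22 ± 0.38, and Cdkn1b, Cdkn2c and Rb1 had log2 fold changes of 0.15 ± 0.71, -0.89 ± 0.74 and -0.50 ± 0.59 (SE). With library size as the only scaling the median of all genes was 1.86 instead of -0.02. Ccnd3, Cdk4, Ccne1 and Ccne2 then passed as well, and Cdkn2c and Rb1 turned to 0.89 and 1.46, so all these values are relative to the bulk of genes. Immunoglobulin took 33.8% and 17.7% of counts in MPC-11 against 75.5% and 77.2% in flox/+ libraries.

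Of 26 G1 partners tested in this comparison, 7 rose in MPC-11, 0 fell and 19 did not pass, while over all genes 1381 of 11465 rose and 1794 fell. The 7 became 2 without MPC-11 library 1, 4 without MPC-11 library 2 and 19 with library size as the only scaling. Those that rose were E2f3, its dimer partner Tfdp1, Skp2, Cks1b, Ccna2 and the inhibitors Cdkn1a and Cdkn2b. Of these, Ccna2 was not called by DESeq2 (adjusted p = 0.138), and it averaged 1.94 ± 2.74 CPM in flox/+ plasma cells. E2f3 averaged 16.4 ± 3.97 CPM in MPC-11 and 1.56 ± 0.237 CPM in flox/+ plasma cells, and Tfdp1 43.0 ± 8.91 CPM in MPC-11 and 5.09 ± 1.38 CPM in flox/+ plasma cells. Cdkn1a averaged 119 ± 12.1 CPM in MPC-11 and 21.5 ± 4.25 CPM in flox/+ plasma cells, and Cdkn2b 36.0 ± 8.99 CPM in MPC-11 and 3.41 ± 1.42 CPM in flox/+ plasma cells. Of 24 S phase and mitosis genes, 14 rose and 0 fell, with a median of 2.32; 10 to 13 rose without any 1 library and 22 with library size as the only scaling. The 14 were Cdk1, Top2a, Aurkb, Ccnb1, Ccnb2, Ccnf, Cdc6, Cdc20, Bub1, Plk1, Mcm3, Mcm4, Mcm5 and Mcm7. Among them Ccnb2, at 1.36 ± 1.92 CPM in flox/+ plasma cells, was not called by DESeq2 (adjusted p = 0.151). Cdk1, the kinase of mitosis, averaged 54.2 ± 18.7 CPM in MPC-11 and 0.935 ± 0.543 CPM in flox/+ plasma cells (log2 difference 5.85 ± 0.68 SE, adjusted p = 0.00138 by edgeR), and Top2a averaged 83.2 ± 35.8 CPM in MPC-11 and 0.982 ± 0.950 CPM in flox/+ plasma cells. Of 20 upstream regulators tested, 2 rose, Myc and Foxo3, and 6 fell, Ikzf3, Stat5b and Pim2 among them; with library size as the only scaling 7 rose and 4 fell. Pcna and Mcm6 did not pass, at -0.03 ± 0.55 and 0.24 ± 0.37 (SE).

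Across the mouse libraries scaled together, the order of Ccnd2 was bone marrow plasma cells at 454 CPM (1 library), MPC-11 with the guide at 351 and 262 CPM, MPC-11 with the empty vector at 191 and 328 CPM, flox/- plasma cells at 118 and 80.6 CPM, follicular B cells at 68.8 CPM (1 library) and flox/+ plasma cells at 47.5 and 33.7 CPM. The 2 MPC-11 groups overlapped, and no other neighbours in that order did. Bone marrow plasma cells, which are among the longest-lived plasma cells, were thus at the top of the order for a D-type cyclin. Their Ccne2 stood at 1.08 CPM, against 15.8 and 9.49 CPM in MPC-11 with the empty vector. For Ccne1 they stood at 21 CPM, within the range of 20.1 to 41.4 CPM of MPC-11 with the empty vector. By group mean they were also highest for Ccnd3, Cdk6, Cdkn2c and Rb1, with 102, 4.42, 13.3 and 37.0 CPM, though Cdkn2c lay within the flox/+ range of 8.46 to 14.7 CPM, and lowest for Cdkn1b, with 5.05 CPM. Follicular B cells had the lowest group mean for Cdk4, Ccne1, Ccne2, Cdkn2c and Rb1, with 102, 5.01, 0.178, 2.87 and 14.7 CPM, of which Cdk4 and Rb1 lay within the range of the next group. Each of these groups had 1 library, so none of these orders has a replicate check. The bone marrow library also held 462 CPM summed over 5 neutrophil genes and 710 CPM over 8 follicular B cell genes. Its macrophage and monocyte sum was 196 CPM and its T cell sum 20.5 CPM. The part of these cells in its levels was not tested.

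**Figure D4:**
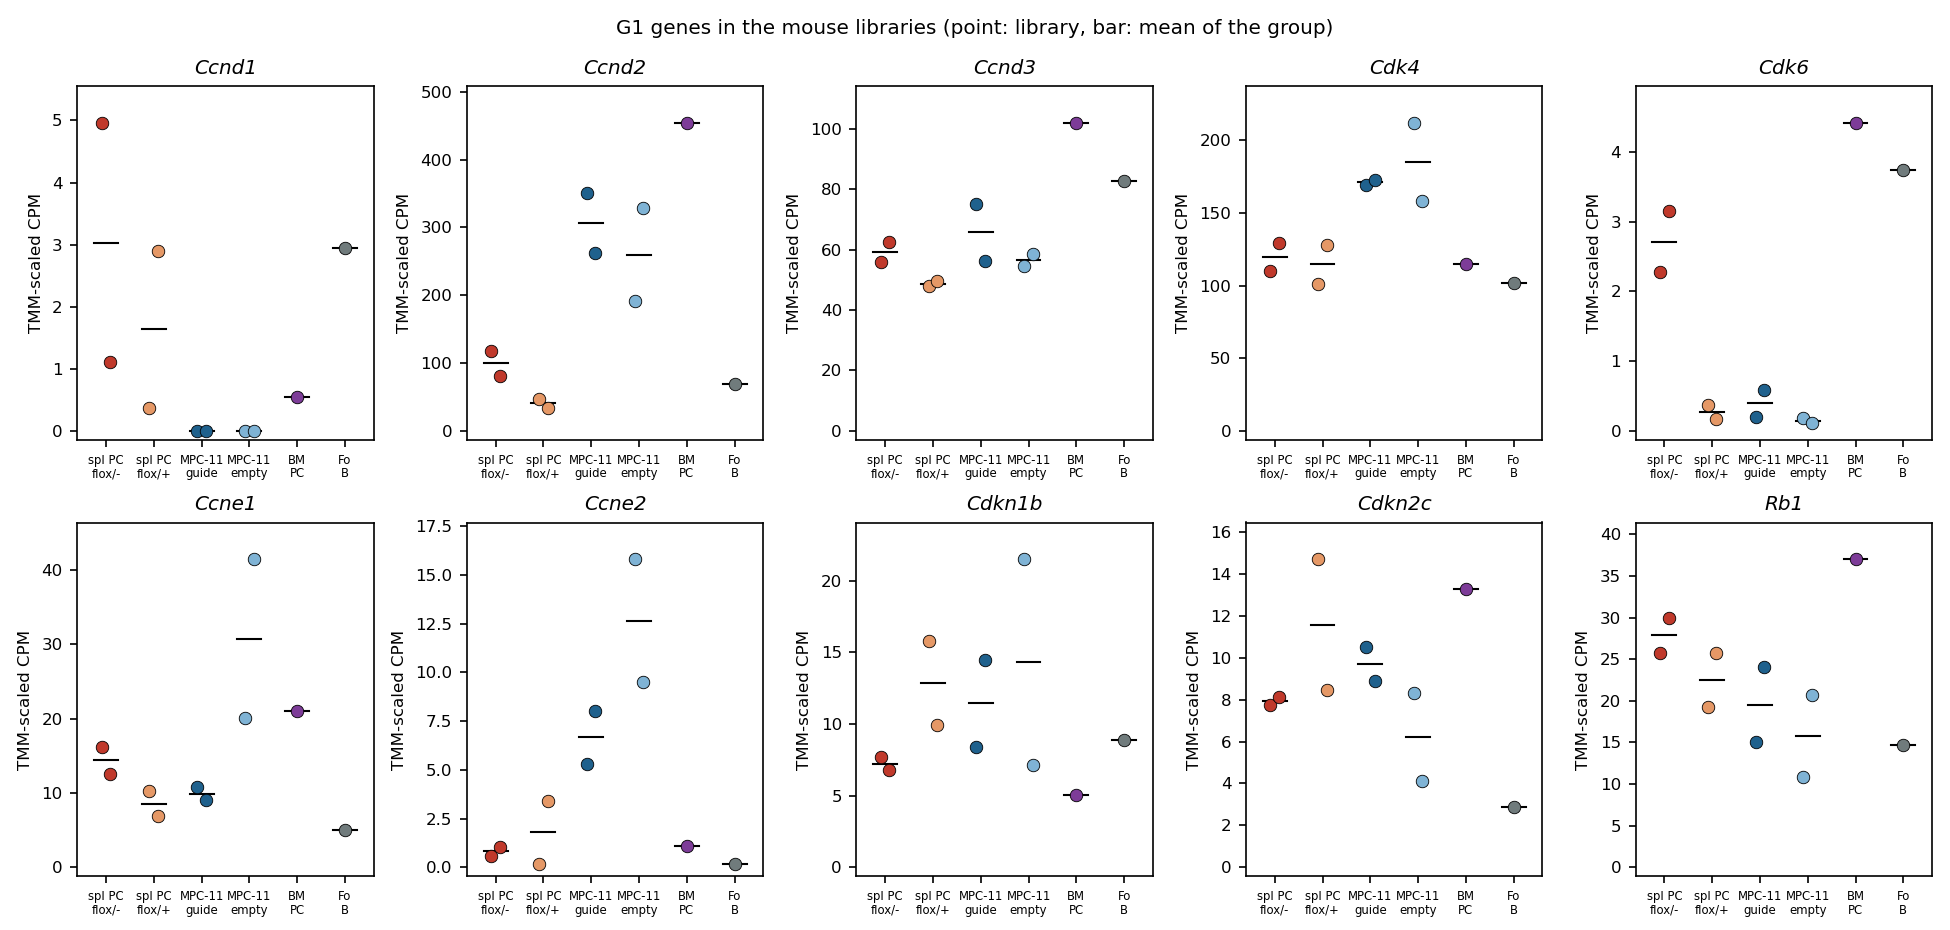
TMM-scaled CPM (y axes, each from 0) of the 10 genes in the 10 mouse libraries by group; points are libraries and bars are group means. Ccnd2 is at 33.7 to 118 CPM in the 4 splenic plasma cell libraries and at 191 to 454 CPM in the MPC-11 and bone marrow libraries, while Ccnd1 has no count in MPC-11.

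Cdk6 split the mouse libraries in another way. It stood at 4.42 CPM in bone marrow plasma cells, at 2.28 and 3.15 CPM in flox/- plasma cells and at 3.74 CPM in follicular B cells, and at 0.105 to 0.586 CPM in the 4 MPC-11 and 2 flox/+ libraries. Cdk4 spanned less than Cdk6 or Ccnd2, from 101 to 212 CPM over all 10 mouse libraries. On the deposited FPKM scale, which allows genes to be compared per length, Cdk4 was the highest member in all 6 mouse groups, with group means of 7.14 to 8.11 log2 FPKM. In MM.1S CCND2 was highest, at 6.5 log2 FPKM with the guide and 7.46 with the empty vector, next to CDK4 at 6.34 with the guide and 6.86 with the empty vector.

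The make-up of the D-type cyclins differed between the sources. By FPKM, Ccnd2 made up 44.0% and 33.7% of the summed D-type cyclins in flox/- plasma cells and 27.8% and 20.7% in flox/+ plasma cells. It made up 67.0% and 66.7% in MPC-11 with the guide and 58.2% and 71.5% with the empty vector, 72.6% and 74.3% in MM.1S with the guide and 80.1% and 77.1% with the empty vector. In bone marrow plasma cells it made up 59.1% and in follicular B cells 24.3%. Ccnd3 was the main D-type cyclin in all 4 splenic plasma cell libraries and in follicular B cells, and Ccnd1 stayed at or under 3.81% in every library.

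**Figure D5:**
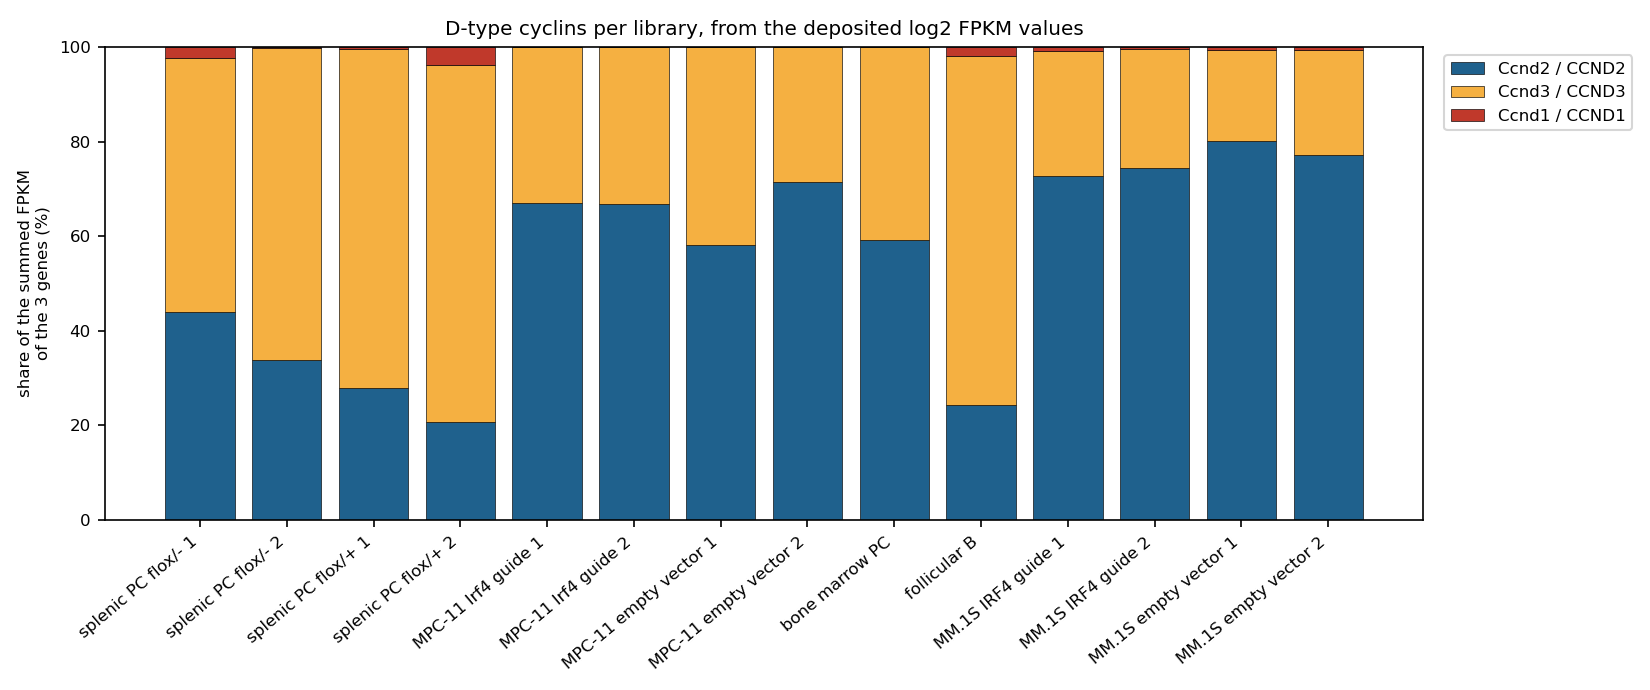
Stacked bars give the share (y axis, percent) of Ccnd2, Ccnd3 and Ccnd1 in the summed FPKM of the 3 genes in each of the 14 libraries, from the deposited log2 FPKM values. Ccnd2 holds 20.7% to 44.0% in splenic plasma cells and 58.2% to 80.1% in the cell lines and bone marrow plasma cells.

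Over the 10 mouse libraries, the genes whose log2(CPM + 1) ran most like that of Ccnd2 were Afdn, Morn1 and Pde4a, with Pearson r of 0.947, 0.942 and 0.933 among 9035 genes. For Ccnd3 they were Dnajc5, Ogdh and Ppp3cb, with r of 0.862, 0.862 and 0.836, and for Ccnd1 Gnb1, Nop53 and Larp7, with r of 0.974, 0.955 and 0.937. These are descriptions over libraries that fall into 6 groups and share depth and scaling, and the Ccnd1 values rest on few counts.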

How the data were processed

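RNA of 14 libraries was read from the deposited gene tables. Per the labels' protocols, RNA was purified on columns and a transposase kit built the libraries. Subread 1.6.0 and featureCounts are in the submitters' processing notes, as are limma and the builds mm10 and hg38; the annotation and filters are not given in the sources used here. The authors deposited raw counts per gene for each species, as whole numbers without normalization, with 27179 mouse and 28395 human entries; entries without a symbol held at most 0.306% of counts. The authors also deposited log2 FPKM values per library, whose offset and further normalization are not stated; 7 of the 10 mouse libraries share the same highest value, so these values may have been set to a common distribution. The 2 flox/+ count columns have 1 shared name, hence the letters a and b; the FPKM shares use the numbered libraries.

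Counts were fitted in R 4.3.3 with edgeR 4.0.16 (TMM, filterByExpr with a minimum count of 10, quasi-likelihood F test, two-sided, Benjamini-Hochberg over all genes tested, threshold 0.05), each comparison on its own 4 libraries and the interaction on 8. DESeq2 1.42.0 on the same genes and limma 3.58.1 on log2 FPKM were alternatives, with other scalings, no filter, no immunoglobulin genes, 1 fit over all mouse libraries, a replicate block and each library left out. A floor is 3 counts. The comparisons in mouse share control libraries, so their values are given side by side only. Replicates differed beyond counting noise (chi-square over its degrees of freedom, 37.2 to 266). The labels do not say whether the replicate numbers pair the cell line libraries, and 2 pairs per line cannot settle it.

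The members and the lists of 29 G1 partner, 24 S phase and mitosis and 22 upstream genes, and the markers, were chosen with earlier results of these data known. Named are all members, genes of the partner and S phase lists that passed edgeR or else up to 4 with the smallest p under 0.05, Irf4, and the 3 genes most like each D-type cyclin among those with a mean of at least 5 CPM. The full set of 12 S phase and mitosis genes in MM.1S, Pcna and Mcm6 against splenic cells, Myc, Foxo3, Ikzf3, Stat5b, Pim2 and the neighbours of CDKN2C were named after their values were seen. No human annotation or protein sequence was used here. Some single genes of the upstream list are not reported here.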

Additional observations from a re-analysis of the deposited data

How the results depend on the processing

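The members' fold changes were recomputed under the alternatives, for the interaction those of Ccnd2 and Ccne1 only; of 400 such values 362 kept direction and side of the threshold, 17 passed newly and 21 changed sign, and none lost a call. In the main fits only Ccnd2 in MPC-11 against spleen passed, so no other member value had a call to lose. The number of genes passing varied more than these values. DESeq2 called 632 genes in spleen, 160 in MPC-11, 371 in MM.1S and 179 for the interaction, against 0, 2, 1 and 0 with edgeR. Without the filter on low counts edgeR called 32 in MPC-11, 289 in MM.1S and 8 for the interaction. One fit over all mouse libraries called 5 in spleen and 6 in MPC-11. Library size alone called 0 in MPC-11 and 6385 for MPC-11 against spleen (main 3175). Limma on log2 FPKM called 0 in MPC-11 and 9 in MM.1S. Without 1 replicate at a time, calls ranged from 1 to 37 in MPC-11, 0 to 966 in MM.1S (966 without empty vector library 1), 1472 to 3081 for MPC-11 against spleen, 0 to 1 for the interaction, and stayed at 0 in spleen; a lone library was assumed to vary like the others. The cause was not tested.

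With a replicate block, 0 genes passed in MPC-11 and 208 in MM.1S, among them CCND2 and CCNE1 (adjusted p = 0.0156 and 0.0314). Deviations of same-numbered libraries correlated at -0.08 in MPC-11 and 0.09 in MM.1S. With 2 pairs per line, this cannot show whether the numbers pair the libraries. No paired analysis was possible because the flox/+ count columns carry no replicate numbers, for the comparisons that include spleen.

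CCND2 and CCNE1 passed without the filter (adjusted p = 0.00937 and 0.0219) and, with CDK6, without empty vector library 1 (adjusted p = 0.00853, 0.0135 and 0.031). Against spleen, Ccne1 passed in the fit over all mouse libraries. Without flox/+ library b, Ccne2 had a log2 fold change of 6.11, on 2 counts in flox/+ library a. No change of sign was in a member with an unadjusted p under 0.05. With library size alone, Cdkn1b and Cdkn2c in spleen gave 0.03 and 0.32, and Cdkn2c and Rb1 in MPC-11 against spleen 0.89 and 1.46. Leaving out 1 replicate gave, in spleen, -0.56 to 2.99 for Ccnd1, -0.09 to 0.21 for Cdk4 (-0.07 without flox/- library 2) and -2.03 to 2.09 for Ccne2. In MPC-11 it gave -0.12 to 0.74 for Ccnd2, -0.26 to 0.09 for Cdk4, -0.85 to 0.66 for Cdkn1b (0.06 without guide library 1) and -0.10 to 0.91 for Rb1 (-0.09 without guide library 2). In MM.1S it gave -0.66 to 0.46 for CDKN1B (-0.20 without empty vector library 1), which was -0.07 with the block and -0.09 with limma. In MPC-11 against spleen it gave -0.80 to 0.78 for Cdkn1b (-0.10 without flox/+ library b), and limma gave -0.03. Genes with under about 50 counts, such as Cdk6 in flox/+ and MPC-11 libraries, are limited by depth.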
